A study of Mus musculus with 6 samples.

Results

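The 8 genes described here are Lin28a, Lin28b, Trim71, Igf2bp1, Igf2bp2, Igf2bp3, Hmga2 and Dis3l2, which were taken by symbol from the 23361 genes of a table of whole-testis RNA levels. They encode the LIN28 proteins, the protein TRIM71, and oncofetal partners or targets of the let-7 microRNAs. All 8 were present and all 8 passed the filter on low counts. The set was chosen by function with the measured treatment difference of these mice already known, in particular the lower Lin28a and Trim71 counts of the inhibitor group, so the differences are given as a description with no p-value, and whether a gene passed the threshold of the fit over all genes is stated only to describe it. Polyadenylated RNA was sequenced from the testes of 6 C57BL/6J mice aged about 120 days, all carrying V805A on both copies of Ret. Ret is the receptor kinase through which glial cell line-derived neurotrophic factor (GDNF) signals, and V805A opens it to block by 1NaPP1-HCl, a small molecule. The 3 control mice were injected daily for 9 days with vehicle (saline, cremophor and ethanol), and the 3 inhibitor mice with the same vehicle containing 1NaPP1-HCl. Testes were taken on day 14, after 5 days without injection. No wild-type mice and no untreated mice were among the samples, so effects of the compound through Ret and through other targets cannot be told apart. The comparison asks how testis RNA differs after a period of inhibited GDNF signalling.

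The let-7 microRNAs are short RNAs that silence messenger RNAs carrying a match to their seed, the stretch of bases near the 5′ end that pairs with the target. LIN28A and LIN28B bind let-7 precursors through a cold shock domain and a pair of zinc knuckles, the latter recognising a GGAG motif in the precursor. LIN28A recruits uridylyl transferases that add a tail of uridines. DIS3L2 is the exonuclease that degrades the tailed precursor. Mature let-7 in turn represses Lin28a, Lin28b, Trim71, Hmga2 and the Igf2bp genes, so LIN28 and let-7 hold each other in check. In the adult mouse testis LIN28A is known as a marker of undifferentiated spermatogonia, the few dividing germ cells among which the stem cells are found.

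The mature let-7 family is shown because every target site below is read against its seed. The 9 sequences (RefSeq, GRCm38.p6) share a single seed, bases 2 to 8, given in capitals, and differ from each other further along.
let-7a-5p: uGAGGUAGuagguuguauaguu
let-7b-5p: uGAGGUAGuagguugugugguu
let-7c-5p: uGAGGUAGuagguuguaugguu
let-7d-5p: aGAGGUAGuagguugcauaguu
let-7e-5p: uGAGGUAGgagguuguauaguu
let-7f-5p: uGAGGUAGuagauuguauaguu
let-7g-5p: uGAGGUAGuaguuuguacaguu
let-7i-5p: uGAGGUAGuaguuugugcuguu
miR-98-5p: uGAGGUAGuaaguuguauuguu

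The precursors are shown because they are what LIN28 binds. Of the 12 hairpins of the family in RefSeq, 9 hold the letters GGAG after the arm that becomes mature let-7, and 3 (let-7b, let-7c-2 and miR-98) do not. Of these 12 a pair from each kind is printed, with GGAG in capitals: let-7g (chr9:106178840-106178927, forward strand) and let-7a-1 (chr13:48538179-48538272, reverse strand) with it, and let-7b (chr15:85707319-85707403, forward strand) and let-7c-2 (chr15:85706603-85706697, forward strand) without it. A match describes the letters only and not binding.
let-7g hairpin: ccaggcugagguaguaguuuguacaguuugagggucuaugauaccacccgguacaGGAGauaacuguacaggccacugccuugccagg
let-7a-1 hairpin: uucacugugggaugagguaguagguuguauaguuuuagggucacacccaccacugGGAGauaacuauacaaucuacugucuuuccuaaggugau
let-7b hairpin: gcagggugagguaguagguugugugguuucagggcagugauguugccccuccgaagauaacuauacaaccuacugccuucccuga
let-7c-2 hairpin: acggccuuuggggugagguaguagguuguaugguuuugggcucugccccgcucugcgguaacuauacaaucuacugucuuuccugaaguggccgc

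The 3′ untranslated regions (UTRs) of the 8 genes were searched on the sense strand for CTACCTC, the 7 bases complementary to the seed (a 7-mer), and for CTACCTCA, the same followed by A (an 8-mer). The 3′ UTR was that of the longest transcript with one in GENCODE M21, on the build of the deposited values (mm10, the same assembly as GRCm38). Trim71 held 4 8-mers in 5512 bases, Igf2bp1 held 3 and a further 7-mer in 6337 bases, and Lin28a held 2 in 2775 bases. Lin28b and Hmga2 each held 1 8-mer and 3 further 7-mers, Igf2bp2 and Igf2bp3 each held 1 8-mer, and Dis3l2 held neither in its 350 bases. So 7 of the 8 had an 8-mer, against 665 of 19994 tabulated genes with an annotated 3′ UTR (3.33%). Most of the 8 are listed because they are let-7 targets, and this share is therefore a description of the choice. Among the 606 genes whose 3′ UTR is at least as long as that of Trim71, Trim71 was the only one with 4 or more, and among the 3344 at least as long as that of Lin28a, 24 (0.718%) had 2 or more. Over the whole table Mcf2l, Trim6 and Trim71 were the 3 genes with at least 4. The sites of the genes with the largest differences are shown, and for contrast the 8-mers of Lin28b and Hmga2, with the match in capitals and its first base counted from 1 after the stop codon.
Lin28a at base 909: cacagcctgttgaaCTACCTCAtttttgcc
Lin28a at base 1547: agatcgccacaaacCTACCTCActgtgttg
Trim71 at base 166: acattgcctaagtcCTACCTCAgcttaaat
Trim71 at base 262: gtgataatttctatCTACCTCAactctttg
Trim71 at base 3591: ttagtatggattttCTACCTCAattttggc
Trim71 at base 3617: tggcaaaaagttgtCTACCTCAcgtcggca
Lin28b at base 36: cccgggcgggaagtCTACCTCAtgcaagca
Hmga2 at base 58: ccgacattcaatttCTACCTCAgcatcagt

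The matches in Lin28a lie at chr4:134005189-134005196 and chr4:134004551-134004558, and those in Trim71 at chr9:114512472-114512479, chr9:114512376-114512383, chr9:114509047-114509054 and chr9:114509021-114509028. The matches shown for Lin28b and Hmga2 lie at chr10:45381022-45381029 and chr10:120364224-120364231. All are in 3′ UTR exons of genes on the reverse strand, in GRCm38 coordinates. The Trim71 matches fall into a pair 166 and 262 bases after the stop codon and a pair 3591 and 3617 bases after it.

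**Figure D1:**
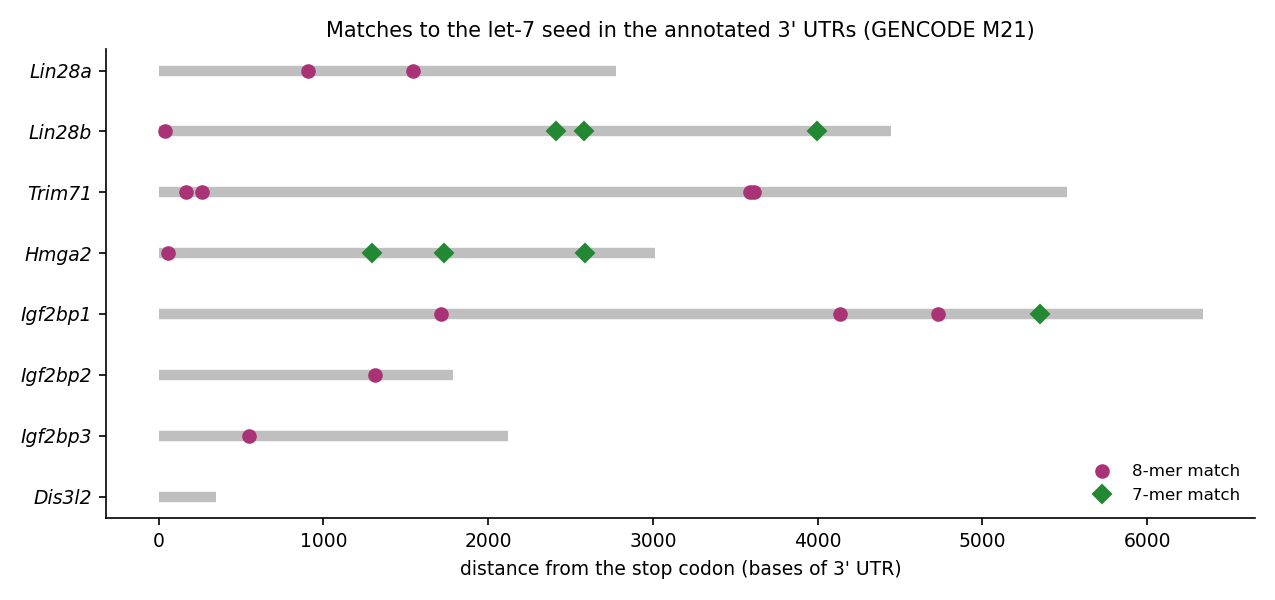
Matches to the let-7 seed along the annotated 3′ UTR of each gene. The horizontal axis is the distance from the stop codon in bases, each grey bar is a 3′ UTR, circles are 8-mers and diamonds are 7-mers. Trim71 carries 4 8-mers in 2 pairs, and Dis3l2 has no match.

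The 6 libraries held from 23144295 to 43127892 fragments assigned to genes. In the marker lists, all 11 tested genes of undifferentiated spermatogonia (of 13 listed, none of them at 0) had a log2 fold change below 0, and 3 of them (Zbtb16, Ret and Sox3) fell past the threshold of an adjusted p of 0.05 in edgeR. Of all 16658 genes tested, 0.0960% were called lower. The summed level of the 13 markers was 103 to 106 in controls in units of CPM, the count relative to the scaled library total, and 77.1 to 92.1 CPM in inhibitor mice. Neither Lin28a nor Trim71 is in that list. Of the 6 markers of differentiating spermatogonia, 5 were below 0 and none passed, and their sum was 578 to 584 CPM in controls and 594 to 632 CPM in inhibitor mice. Only Dmrtb1 was above 0, and the median log2 fold change of the 6 was −0.201, so the higher sum does not describe most of them. Summed markers of spermatids stood at 8450 to 8890 CPM in controls and 9210 to 10700 CPM in inhibitor mice, and those of spermatocytes at 4710 to 4990 and 5200 to 5510 CPM. For Sertoli, Leydig, peritubular, endothelial, macrophage and epididymal markers the summed ranges of the groups overlapped. A log2 fold change below 0 was not particular to undifferentiated spermatogonia. It was had by all tested markers of Sertoli (6), peritubular (3), endothelial (3), macrophage (2) and epididymal (2) cells, and by 3 of 5 for Leydig cells, with none called. It was had by 0 markers of spermatocytes or spermatids. In whole-testis RNA, fewer cells of a type and less RNA per cell cannot be told apart.

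In control testes the 8 genes spanned a wide range of levels per length of transcript (FPKM, fragments scaled by transcript length and library size). Igf2bp3, which encodes an RNA-binding protein of the insulin-like growth factor 2 mRNA-binding family, was highest at 28.8 ± 1.21 FPKM (SD, n = 3). Dis3l2 followed at 15.2 ± 0.136 FPKM, with no overlap between the control mice of the pair. Next came 4 genes of nearly the same level, Lin28a at 1.58 ± 0.152, Lin28b at 1.53 ± 0.316, Igf2bp1 at 1.48 ± 0.148 and Hmga2 at 1.46 ± 0.230 FPKM, and neighbours among these 4 did not differ beyond their spread. Trim71 was lower at 0.942 ± 0.123 FPKM and Igf2bp2 lowest at 0.405 ± 0.0953 FPKM, each below its neighbour in every control mouse. Igf2bp3 thus lay above 84.7% of all tabulated genes by its control mean, Lin28a above 47.1%, and Igf2bp2 above 34.7%.

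Lin28a (chr4:134003330-134018841, reverse strand) was lower in every inhibitor mouse than in any control. Its level was 1.56, 1.44 and 1.74 FPKM in controls 1, 2 and 3, and 0.561, 0.956 and 0.662 FPKM in inhibitor mice 1, 2 and 3. Inhibitor mouse 2 was the closest to the controls, and the groups did not overlap. These levels rested on 130, 212 and 171 fragments in controls and on 54, 73 and 63 in inhibitor mice. The mean went from 5.28 ± 0.498 to 2.42 ± 0.685 CPM (SD, n = 3 per group), which is 2.2-fold lower in the fit over all genes (log2 fold change −1.13, SE 0.188). Within the inhibitor group the FPKM varied by 28.2% (coefficient of variation), where counting error at these depths alone would give 12.6%.

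Lin28b (chr10:45376620-45486395, reverse strand), the paralogue whose protein also binds let-7 precursors, stood at 1.51, 1.22 and 1.86 FPKM in the controls. In the inhibitor mice it stood at 1.47, 1.27 and 1.49 FPKM, all within the range of the controls. Its log2 fold change was −0.11 (SE 0.147), and it was 0.06, of the opposite sign, without control 3. The ratio of Lin28a to Lin28b within a mouse does not depend on library scaling. It was 1.04, 1.18 and 0.939 in the controls, close to parity, and 0.382, 0.752 and 0.444 in the inhibitor mice, a mean of 1.05 ± 0.119 against 0.526 ± 0.198 (SD, n = 3 per group), without overlap.

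Trim71 (chr9:114507133-114564369, reverse strand), which encodes an RNA-binding protein and ubiquitin ligase of stem and progenitor cells and is a classic let-7 target, was lower by a similar factor. Its level was 1.07, 0.924 and 0.830 FPKM in controls 1, 2 and 3, and 0.417, 0.499 and 0.401 FPKM in inhibitor mice 1, 2 and 3. The inhibitor mice lay close together and well apart from the controls. The levels rested on 136, 207 and 124 fragments in controls and on 61, 58 and 58 in inhibitor mice. The mean went from 4.79 ± 0.618 to 2.23 ± 0.271 CPM (SD, n = 3 per group), 2.15-fold lower (log2 fold change −1.11, SE 0.163). By FPKM, controls had 0.602 ± 0.111 Trim71 per Lin28a and the inhibitor group 0.623 ± 0.111 (SD, n = 3 each), with overlap. The spread of the inhibitor mice in Trim71, 12.0%, was no wider than counting error at their depth, 13%.

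**Figure D2:**
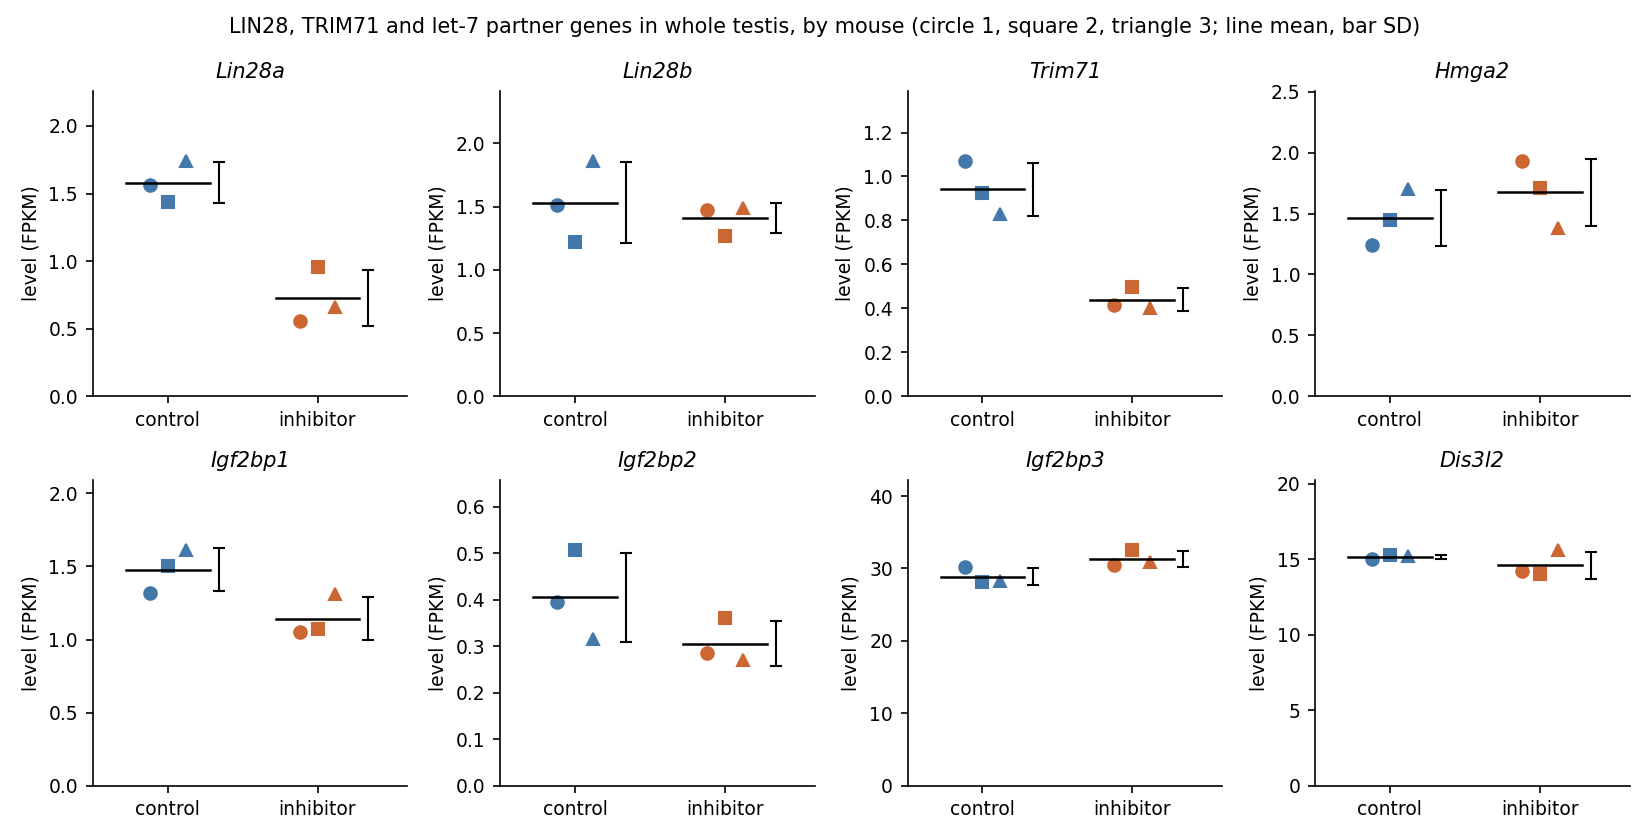
Level of each gene in each mouse (vertical axis, FPKM, from 0). Blue symbols are controls and orange symbols are inhibitor mice, the shape gives the mouse number, the line is the group mean and the bar is the SD (n = 3). Lin28a and Trim71 are separated by group at about 1.58 against 0.727 and 0.942 against 0.439 FPKM, while Lin28b, Hmga2, Igf2bp2 and Dis3l2 overlap.

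Lin28a and Trim71 were the 2 of the 8 genes past the threshold (both lower), where 0.156% of the 16658 genes tested were past it in either direction and 0.0960% were lower. Because the choice of these genes used this contrast, nothing is read from that count. Both lost the call without control 1, control 2, control 3, inhibitor 1 or inhibitor 2. Over all mice left out in turn, log2 fold changes were −1.37 to −0.98 for Lin28a and −1.20 to −1.01 for Trim71. Without control 1, control 2, inhibitor 1 or inhibitor 2, no gene at all was called. Without control 3, 7 genes were called lower and 3 higher. Neither Lin28a nor Trim71 was called after removal of the trend on length and GC content of transcripts (−1.11 and −0.93). With that trend removed, 7 of all genes tested were called lower and 6 higher. On the scale of log2(FPKM + 1), which understates changes of low genes, Lin28a and Trim71 were at −0.59 and −0.43. The groups did not overlap for 4 of the 8 genes (3 lower and 1 higher in the inhibitor mice), where they did not overlap for 22.9% of all genes tested. The median log2 fold change of the 8 was −0.24, and that of all genes tested was −0.004.

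**Figure D3:**
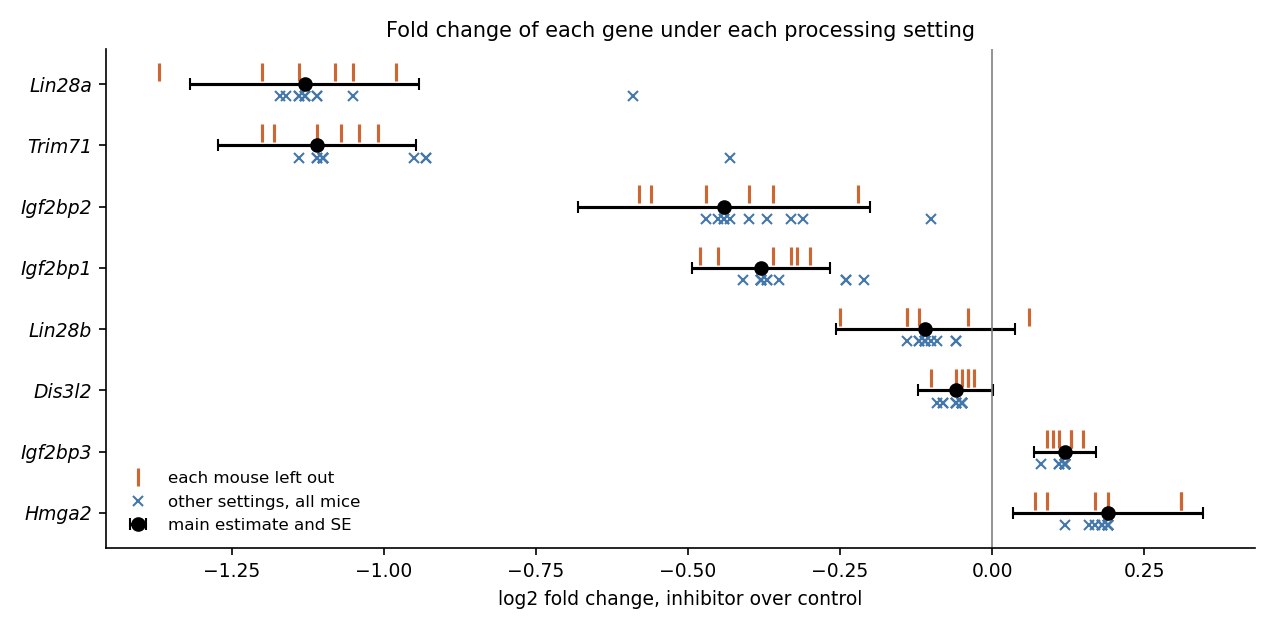
Log2 fold change of each gene, inhibitor over control (horizontal axis), in the main fit (black circle with SE), with each mouse left out (orange ticks) and under the other settings with all mice (blue crosses). Lin28a and Trim71 stay below 0 throughout, at −1.37 to −0.59 and −1.20 to −0.43, and Lin28b crosses 0.

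Markers of undifferentiated spermatogonia were lower as well, but Lin28a and Trim71, chosen with their lower counts known, fell further than the sum of these markers. That sum weighs abundant markers most. The median log2 fold change of the 11 tested markers was −0.503. Set against the summed 13 markers, which do not include it, Lin28a came to 4.95%, 4.56% and 5.66% of that sum in control mice. After the inhibitor it came to 2.44%, 3.97% and 2.39%, and the groups did not overlap. For Trim71, also outside the sum, the percentages were 5.18%, 4.45% and 4.10%, and 2.75%, 3.16% and 2.2%, again without overlap. Relative to Zbtb16 alone, a transcription factor gene of the same cells that itself fell from between 5.54 and 7.18 CPM to between 2.85 and 3.46 CPM, the groups overlapped: Lin28a came to 85.7 ± 18.8% of Zbtb16 among controls against 76.5 ± 20.4% after the inhibitor, and Trim71 to 76.9 ± 11.6% against 70.8 ± 10.9% (SD, n = 3 each). What part the number of these cells has in the lower Lin28a and Trim71 was not tested.

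The Igf2bp genes encode proteins that bind and stabilise messenger RNAs, let-7 targets among them. Igf2bp1 (chr11:95957163-96005940, reverse strand) stood at 1.32, 1.5 and 1.61 FPKM in controls and at 1.05, 1.07 and 1.31 FPKM in inhibitor mice. The groups did not overlap, though inhibitor 3 and control 1 nearly met. The log2 fold change was −0.38 (SE 0.113), and this gene was past the threshold only without inhibitor 3 (−0.48), a setting in which 935 genes were called lower. With the trend on length and GC content removed it was at −0.24. Igf2bp1 contains the microRNA gene Mir3063, tabulated apart with at most 3.2 fragments in a library, and its values in 3 libraries were not whole numbers.

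Igf2bp2 (chr16:22059009-22163299, reverse strand) rested on 29 to 84 fragments per library. It stood at 0.394, 0.506 and 0.316 FPKM in controls and 0.286, 0.360 and 0.270 FPKM in inhibitor mice, with overlap (log2 fold change −0.44, SE 0.240). Igf2bp3 (chr6:49085223-49214957, reverse strand) went the other way by a small amount, at 30.2, 28.1 and 28.2 FPKM in controls and 30.5, 32.5 and 30.9 FPKM in inhibitor mice. The groups did not overlap, but control 1 and inhibitor 1 were close (log2 fold change 0.12, SE 0.0516). Igf2bp3 shares 1529 exon bases with Malsu1 on the opposite strand, a gene at 10.6 to 14.6 CPM. The libraries kept strand, but whether the counting used it is not given in the sources used here, and fragments of the pair may not be separated. The same limit holds for Lin28a (234 shared exon bases), Trim71 (135), Igf2bp1 (43) and Hmga2 (140). Each of them overlaps exons of an opposite-strand gene that is not tabulated. The ratio of Igf2bp1 to Igf2bp3 was 0.0437, 0.0536 and 0.0572 in controls and 0.0344, 0.0330 and 0.0423 in inhibitor mice.

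**Figure D4:**
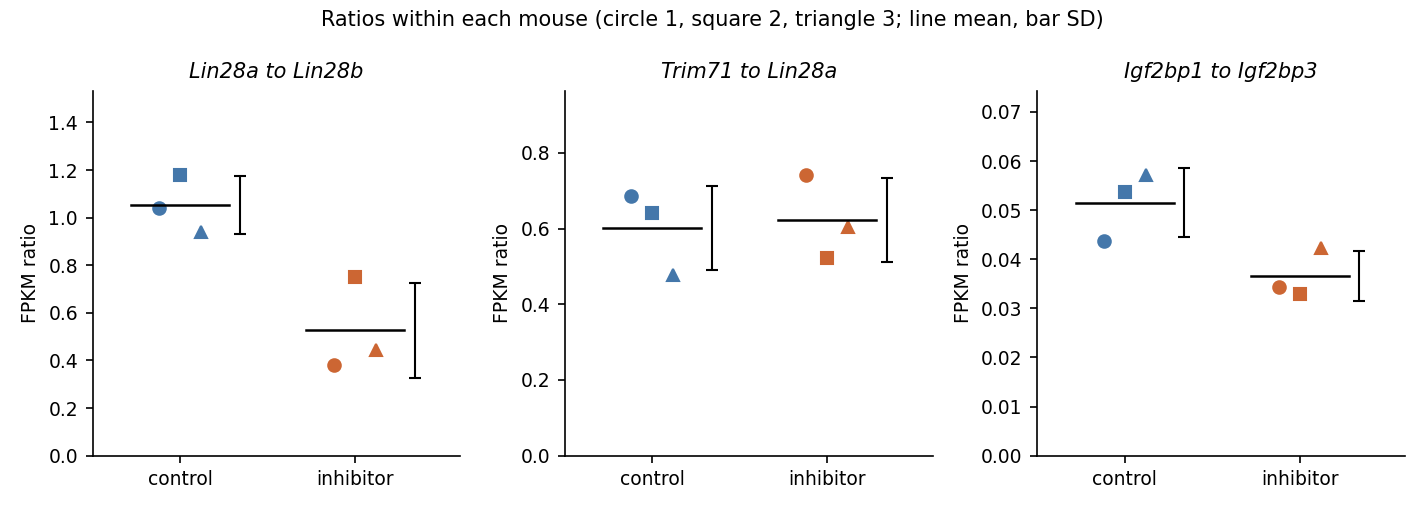
Ratios of FPKM within each mouse (vertical axis, from 0) for Lin28a to Lin28b, Trim71 to Lin28a and Igf2bp1 to Igf2bp3. Symbols are mice, lines are means and bars are SD (n = 3). The ratio of Lin28a to Lin28b lies at 0.939 to 1.18 in controls and 0.382 to 0.752 in inhibitor mice, while the ratio of Trim71 to Lin28a overlaps between the groups.

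Hmga2 (chr10:120361275-120476469, reverse strand), which encodes an architectural chromatin protein and is among the best-known let-7 targets, was not lower. It stood at 1.24, 1.45 and 1.70 FPKM in controls and at 1.93, 1.71 and 1.38 FPKM in inhibitor mice. Inhibitor 1 and inhibitor 2 lay above all controls, inhibitor 2 by a small margin, and inhibitor 3 lay within their range (log2 fold change 0.19, SE 0.156). Dis3l2 (chr1:86703808-87050095, forward strand) stood at 15, 15.3 and 15.2 FPKM in controls and 14.2, 14.0 and 15.6 FPKM in inhibitor mice (log2 fold change −0.06, SE 0.0616). It rested on 961 to 2023 fragments per library, and inhibitor 3 lay above all controls.

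The machinery that makes, loads, tails and decays let-7 was taken as a list of 21 genes, all tested. None of them passed the threshold in either direction in edgeR. The DESeq2 test called 3 of them lower (Drosha, Dicer1 and Tnrc6c). Of the same 16658 genes it called 170 lower and 368 higher, and it gave no adjusted p for 5814. An unadjusted edgeR p under 0.05 was had by 9 of the 21, and by 2982 of all 16658 genes tested. The log2 fold change was below 0 in 18 and above 0 in 3, with a median of −0.09, against 8499 below 0 and a median of −0.004 over all genes. Without overlap between the groups, 8 of the 21 were lower and 1 higher, where 1990 (11.9%) of all genes were lower and 1833 higher. Dicer1, the ribonuclease that cuts the precursor hairpin, was at 3.35, 3.44 and 3.25 FPKM in controls and 2.49, 2.47 and 2.87 FPKM in inhibitor mice, with a log2 difference of −0.36 (SE 0.0743, edgeR adjusted p = 0.0783). Drosha, which cuts the primary transcript, was at 12.4 ± 0.416 and 10.4 ± 0.218 FPKM (SD, n = 3 per group; −0.26, SE 0.0572, edgeR adjusted p = 0.0836).

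Tnrc6c, a partner of the Argonaute proteins in silencing, was at −0.20 (SE 0.0540, edgeR adjusted p = 0.104). Prkra, a partner of Dicer, was at 0.22 (SE 0.0705, edgeR adjusted p = 0.141). With the trend on length and GC content removed, Dicer1 was at −0.23, Drosha at −0.18, Tnrc6c at −0.03 and Prkra at 0.13. The uridylyl transferase genes Tut4 and Tut7, tabulated under older symbols, had log2 fold changes of −0.19 and −0.01, and Dgcr8, the partner of Drosha, of −0.03. The count of called machinery genes changed without inhibitor 3, when 5 were called lower (Drosha, Dicer1, Ago1, Tnrc6a and Tnrc6c), but calls over all genes tested then numbered 935 lower and 1470 higher.

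Of the list of 18 other let-7 targets, 2 fell and none rose in the edgeR test, where 0.0960% of all genes tested fell and 0.0600% rose. The log2 fold change was below 0 in 12 of the 18, with a median of −0.11, against 8499 of 16658 and −0.004 over all genes. The list was written with the lower Ccnd2 and Igf1r of these mice known, so it is not independent evidence of its direction. Ccnd2, a G1 cyclin gene, was at 1.46, 1.6 and 1.55 FPKM in controls and 0.894, 0.971 and 0.928 FPKM in inhibitor mice, with a log2 difference of −0.73 (SE 0.110, edgeR adjusted p = 0.0319). Igf1r, the receptor gene for insulin-like growth factor 1, was at 2.29, 2.13 and 2.05 FPKM in controls and 1.40, 1.47 and 1.70 FPKM in inhibitor mice (−0.50, SE 0.0853, edgeR adjusted p = 0.0484). Both were separated by group in every mouse.

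Neither Ccnd2 nor Igf1r passed when control 1, control 2, control 3, inhibitor 1 or inhibitor 2 was left out. No gene at all passed without control 1, control 2, inhibitor 1 or inhibitor 2, and without control 3, 7 fell and 3 rose. Nor did Ccnd2 or Igf1r pass with the trend on length and GC content removed, when 7 genes fell and 6 rose. The log2 fold change of Ccnd2 was −0.76 to −0.69 with single mice left out and −0.65 with that trend removed, and that of Igf1r was −0.59 to −0.44 and −0.33. Ccnd1 (−0.31, SE 0.106) and E2f2 (−1.66, SE 0.530) did not pass. E2f2, a transcription factor gene of the G1 to S transition, was at 1.25, 1.28 and 0.390 FPKM in controls and 0.346, 0.189 and 0.380 FPKM in inhibitor mice, so control 3 lay beside the inhibitor mice, and without it E2f2 passed (−2.02). The cell cycle targets Cdk6 (0.05), Cdc25a (0.04) and Cdc34 (0.05), picked out with their values in view, lay close to 0 on the log2 scale.

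**Figure D5:**
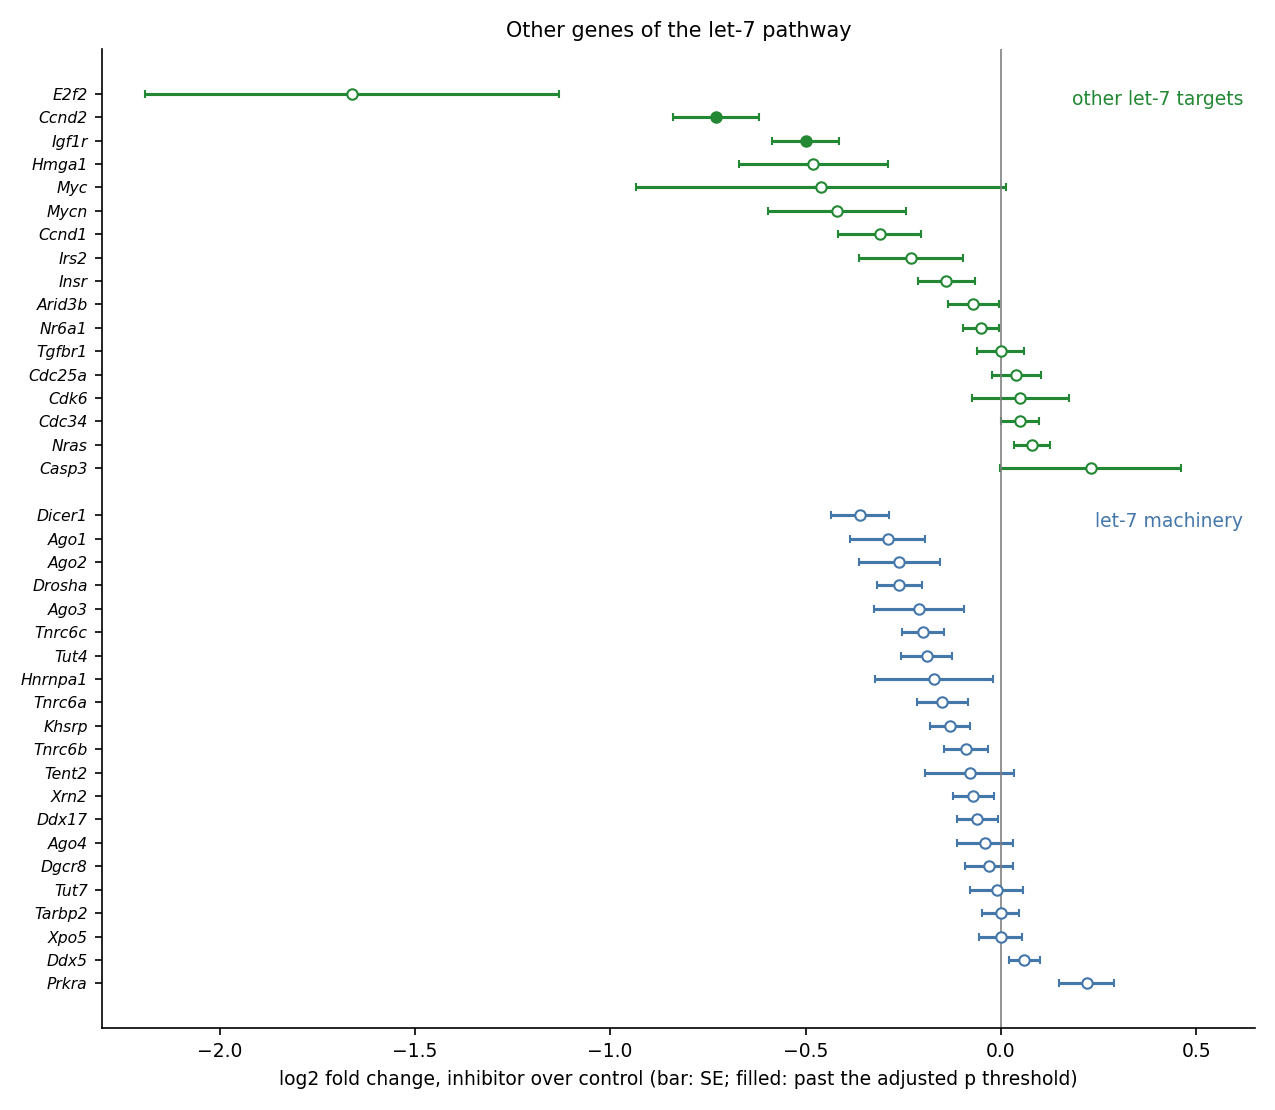
Log2 fold change, inhibitor over control (horizontal axis), of other let-7 targets (green) and the 21 machinery genes (blue), with SE bars. Filled circles passed the adjusted p threshold, which only Ccnd2 and Igf1r did, and Prkra is the machinery gene furthest above 0 at 0.22.

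The microRNAs themselves could not be followed in these libraries, since mature microRNAs carry no poly(A) tail. The table holds 12 rows for let-7 and miR-98 genes and 6 for the miR-99, miR-100 and miR-125 genes that share clusters with some of them, and each of these rows was listed at 0 fragments in all 6 mice. The protein-coding hosts of let-7 genes were measurable. Wdr82, which hosts let-7g, was at 12.9, 12.2 and 12.7 FPKM in controls and 10.4, 11.7 and 12.9 FPKM in inhibitor mice, a log2 fold change of −0.11 (edgeR adjusted p = 0.465). Huwe1, the X-linked host of let-7f-2 and miR-98, was at 7.23, 6.01 and 7.81 FPKM in controls and 6.15, 4.78 and 4.64 FPKM in inhibitor mice (−0.43, SE 0.140, edgeR adjusted p = 0.189). The levels of a host messenger RNA do not give those of the microRNA.

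Across all tested genes with an annotated 3′ UTR, those with more 8-mer let-7 sites had slightly lower medians, as did genes with longer 3′ UTRs. The median log2 fold change was −0.010 over 14799 genes with 0 sites, −0.039 over 537 with 1 site and −0.056 over 26 with 2 or more. The median 3′ UTR was 1063, 2439 and 4613 bases in these classes. Among genes with 3′ UTRs between the lower and upper quartile of the lengths of the last class, a window chosen after the class medians were seen, the median was −0.042 over 2059 genes with 0 sites and −0.032 over 12 with 2 or more. With the trend on length and GC content removed, the medians of the classes were 0.004, 0.013 and −0.016. Lin28a and Trim71 were the 2 called genes of the class with 2 or more sites, which also holds Igf2bp1, and without these 3 its median was −0.036. These values are a description with no test.

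Over the 6 libraries and 15103 other genes that averaged 0 or more in log2 CPM, the named genes whose log2 CPM was most like that of Lin28a were Dock11 (Pearson r = 0.996), Lrrk2 (0.995), Ptprb (0.987), Alyref (0.987) and Crabp1 (0.987). For Trim71 they were Abcg1 (0.998), Pepd (0.996), Cpne1 (0.992), Akap2 (0.989) and Elmo2 (0.988). Trim71 was 119th in likeness to Lin28a (r = 0.94) and Igf2bp1 was 1221st (0.76). Lin28b was 5784th (0.23), Hmga2 10880th (−0.39) and Igf2bp3 12879th (−0.61). With 6 libraries in 2 groups, a high r is had by many genes that differ between the groups, and these values are descriptions.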

How the data were processed

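RNA was measured in whole testes of 3 control and 3 inhibitor mice, given as separate mice by the labels. Cutadapt 1.8, TopHat2 2.0.13 and Cuffdiff 2.2.1 are named with the build mm10, per the submitters' processing notes; for annotation and strand setting the sources used here give nothing. Per the file headers, the deposited table gives each gene's assigned fragments, taken to be expected counts from the authors (98.8% whole within 1e-06, rounded), and FPKM values scaled by the authors' software. The 2 columns of scaled fragments were not used.

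The count test was that of edgeR 4.0.16 (R 4.3.3): filterByExpr (16658 genes kept), TMM scaling, the robust quasi-likelihood F-test, two-sided, with Benjamini-Hochberg adjustment at 0.05. Log2 CPM used a prior count of 2. FPKM served for levels between genes. SE was derived from the F statistic. Alternatives were RLE or no scaling, DESeq2 1.42.0, limma 3.58.1 (voom, and log2(FPKM + 1) or log2(FPKM + 0.1)), other filters, the mouse number as a block, a loess offset (span 0.5) on transcript length and GC content, and each mouse left out. The test was tried on simulated data.

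The members and lists were chosen with earlier results of these data known. Genes named are the 8 members, list genes past the threshold, the 4 of each list with the smallest p, and the 5 most like Lin28a or Trim71 without unnamed loci. The rule also takes hosts of let-7 genes with any fragments (Wdr82 and Huwe1). Outside it, Tut4, Tut7, Dgcr8, Cdk6, Cdc25a, Cdc34 and the marker genes were named after their values were seen. A member of the target list, included in its counts, is not reported here singly. Sequences come from RefSeq (GRCm38.p6) and GENCODE M21, and the table of proteins was not used here. The counting error given for single libraries covers sampling of fragments alone.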

Additional observations from a re-analysis of the deposited data

How the results depend on the processing

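The number of called genes depended on the test and on the mice: from 16 lower and 10 higher it went to 170 and 368 with DESeq2, 57 and 58 with no filter, 7 and 3 with at least 50 counts in 3 libraries, 7 and 6 with the length and GC offset, 0 and 0 on log2(FPKM + 1), and 1 and 0 on log2(FPKM + 0.1). Library totals alone gave 4 higher and limma-voom 3 higher. With single mice left out the counts ranged from 0 to 935 lower and from 0 to 1470 higher, the highest without inhibitor 3. The mouse number as a block gave 5 lower and 0 higher (2 and 0 with the offset too), and 0 target genes lower with or without the offset. Same-numbered mice did not deviate together more than other pairs (correlations 0.10, −0.07 and 0.06 against −0.18 to 0.13). The labels say nothing of a shared litter or day, and 3 mice per group are too few to settle it.

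Called machinery genes (0) became 3 lower with DESeq2, 1 with no filter and 0 to 5 with single mice left out. Called target genes (2 lower) became 1 with RLE factors, limma-voom or the stricter filter, 0 on either log2 FPKM scale or with the offset, and 0 to 3 with single mice left out. The site-class medians moved to 0.004, 0.013 and −0.016 with the offset, and to −0.042 and −0.032 in the length window. By CPM per kilobase of the longest transcript, Hmga2 ranked 3, Lin28a 4, Lin28b 5 and Igf2bp1 6 in control level. The causes were not tested. Lin28b ranged from −0.25 to 0.06 with single mice left out, reversed without control 3. DESeq2 gave no adjusted p for Lin28a or Trim71. Lin28a was called in 5 and Trim71 in 6 of 17 alternatives.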
